A study of Mus musculus with 24 samples.

Results

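The genes described here are the heat shock proteins and their DnaJ cochaperones, taken as every probe set whose only annotated gene symbol begins with Hspa, Hspb, Hspd, Hspe, Hsph or Hsp90 followed by letters or digits, or with Dnaja, Dnajb or Dnajc followed by a number. A probe set is the group of short probes that an Affymetrix array uses to read 1 transcript. The rule took 65 of 12422 probe sets on the first array design, MGU74A (array A), and 53 of 12411 on the second, MGU74B (array B). These 118 probe sets named 66 genes, of which 14 were read on both arrays. A further 2 probe sets on array A named a member together with another gene and were left out. By its spelling the rule also took Hspbp1, a cochaperone that helps Hsp70 release its nucleotide, and Hspb11, a component of intraflagellar transport, neither of which is a classical small heat shock protein.

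Heat shock proteins are chaperones that bind unfolded protein and help it to fold, to cross membranes or to be degraded. The Hsp70 proteins (Hspa genes) do this in cycles of ATP binding and hydrolysis, which J-domain proteins (Dnaj genes) start by delivering clients and stimulating the ATPase, and which Hsp110 proteins and other exchange factors end. Hsp90 proteins finish the folding of kinases and receptors, Hsp60 and Hsp10 form the folding chamber of mitochondria, and small heat shock proteins (Hspb genes) hold unfolded chains without using ATP. Some members are switched on by heat shock factors when unfolded protein accumulates in the cytosol, others by the unfolded protein response of the endoplasmic reticulum (ER), and many are made constitutively. In neurons, J-domain proteins also serve synaptic vesicles, and several chaperones limit the aggregation of disease proteins.

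The samples were total RNA from mouse brain of 2 genotypes. The 2N mice had the normal chromosome complement. The Ts1Cje mice, a model of Down syndrome, carried an additional copy of a distal part of chromosome 16, joined to the end of chromosome 12, and were therefore trisomic for the genes of that part. Each genotype had 6 samples on each array design, 24 arrays in all, and the labels gave no brain region, age, sex or strain. No label ties the 6 samples of a group to different animals, and the p-values therefore describe the spread among these samples, some of which may be technical. In an extract of brain tissue, fewer cells of a type and less RNA per cell cannot be told apart.

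Values are intensities, brought to the same distribution on all arrays of a design, with values below 1.47 (array A) or 1.13 (array B) raised to that floor. The median of an array as deposited was 11.2 to 21.7 (array A) or 7.9 to 13.8 (array B), and the number of arrays limits the precision. On array A the 6 neuron markers had 2N means from 44.5 for Nefl, a neurofilament, to 2673 for Tubb3, the neuronal beta-tubulin. Of the oligodendrocyte markers there, Sox10 (59.7), Mbp (36.3) and Mag (17.6) were tested, and Cnp and Mog were too dim to test. In both genotypes the samples numbered 1 and 2 were set off from those numbered 3 to 6, a split known from earlier results of these data that no label names. With that split as a term in the limma model, 214 of 9316 probe sets of array A (2.3%) and 148 of 9308 of array B (1.59%) passed between the replicate sets. Among the members these were 2 of 58 on array A, Dnajb6 (mean 338.8 in replicates 1 and 2 and 397.4 in replicates 3 to 6) and Hspa4 (262.0 and 187.7), and 0 of 43 on array B.

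No heat shock protein or DnaJ gene passed the test between Ts1Cje and 2N brain. After the dimmest 25% of the probe sets of each table were set aside, 58 member probe sets of 45 genes were tested on array A and 43 probe sets of 27 genes on array B. With limma and Benjamini-Hochberg adjustment over the whole table at a threshold of 0.05, 0 of 58 and 0 of 43 passed, beside 0.0966% of all 9316 tested probe sets on array A and 0.0645% of all 9308 on array B. At an unadjusted p under 0.05 there was 1 member of 58 on array A (1.72%, against 3.65% of all tested probe sets) and there were 5 of 43 on array B (11.6%, against 4.28%). The smallest adjusted p of a member was 0.99 for array A and 0.997 for array B.

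The members' differences are given here beside those of all tested probe sets. A log2 difference is Ts1Cje minus 2N throughout, so 1 is a doubling. On array A the members' median log2 difference was 0.0045, with 32 probe sets above 0 and 26 below, and the median over all tested probe sets was -0.0042. On array B the members' median was -0.068, with 16 above 0 and 27 below, against -0.0034 over all tested probe sets. Without normalisation between arrays, the members' median on array B was 0.0016 and that of all tested probe sets there was 0.055. The median size of a member's difference was 0.0863 (array A) and 0.127 (array B), against 0.127 and 0.145 over all tested probe sets. The median within-genotype SD on the log2 scale was 0.267 and 0.356 for members and 0.313 and 0.358 for all tested probe sets. Means of 6 samples vary less than single samples do, so a difference below that SD is no result about the members. The 95% interval lay within 1.5-fold in both directions for 40 of 58 probe sets (array A) and 19 of 43 (array B). For the remaining probe sets a difference of 1.5-fold in at least 1 direction lay inside the interval. In none of the 101 tested member probe sets did the 2 genotypes separate without overlap, which 28 of all tested probe sets on array A (0.301%) and 23 on array B (0.247%) did.

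**Figure D1:**
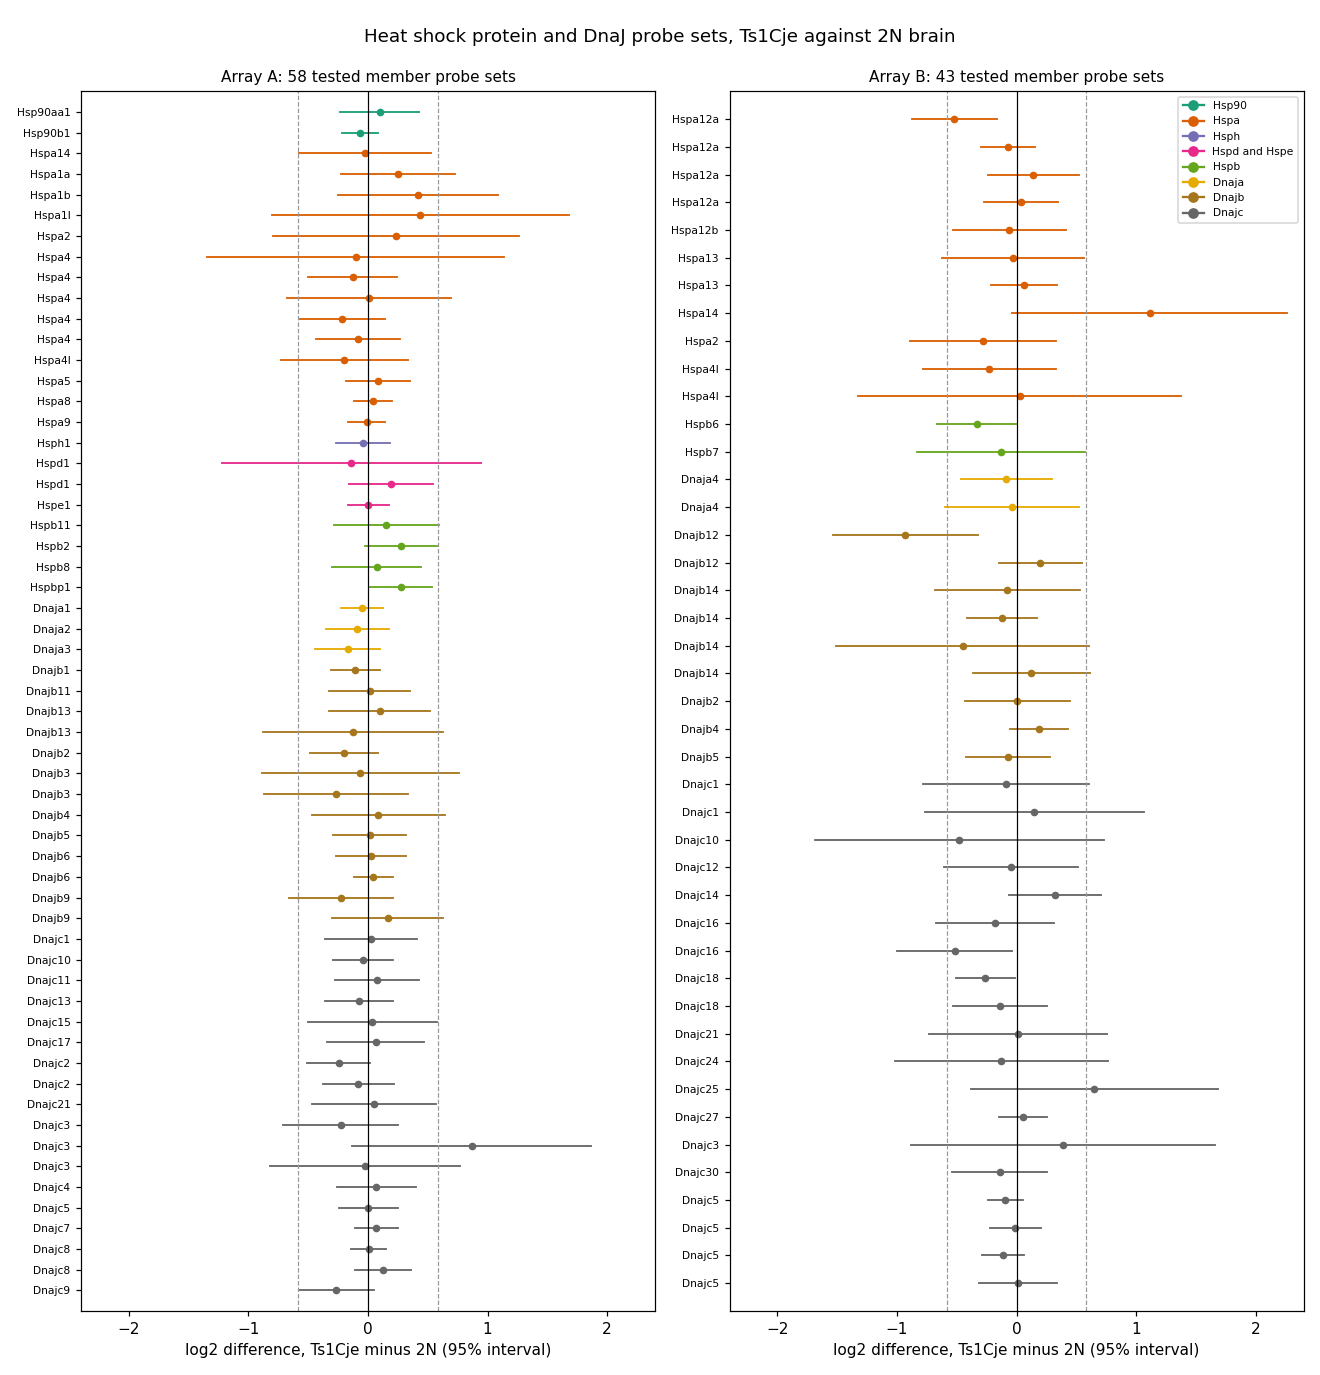
Log2 difference between Ts1Cje and 2N brain (horizontal axis, Ts1Cje minus 2N) for the 58 tested member probe sets of array A and the 43 of array B, 1 row per probe set, with points for the limma estimate, bars for its 95% interval, colours for the gene class and dashed lines at 1.5-fold (0.585 on the log2 scale). The intervals of 1 probe set on array A and of 5 probe sets of array B leave out 0, the array A estimates run from -0.268 to 0.867, and on array B the estimates run from -0.929 to 1.11.

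The Hsp70 genes of the cytosol were read mainly on array A. Hspa8, the constitutive Hsc70 that serves protein folding and the uncoating of clathrin vesicles at synapses, lay at 355 to 403 (median 394) in 2N and 323 to 444 (median 404) in Ts1Cje brain. The genotypes overlapped, although 3 Ts1Cje samples lay above every 2N sample and 1 below, and the log2 difference was 0.042 (95% interval -0.12 to 0.20). Hspa1a, a strictly stress-inducible Hsp70, read 15 to 24.8 (median 21.3) in 2N and 16.2 to 40.4 (median 23.5) in Ts1Cje brain. Its 3 highest values were all Ts1Cje samples, the remaining 3 Ts1Cje samples lay within the 2N range, and the difference was 0.25 (-0.22 to 0.73). It was 0.10 without Ts1Cje replicate 4, the highest sample, 0.59 among replicates 1 and 2 and 0.081 among replicates 3 to 6. Hspa1b, its near-identical neighbour, was dim at 4.61 to 11.6 (median 7.87) in 2N and 7.49 to 16.8 (median 9.79) in Ts1Cje brain. Only 1 of 6 Ts1Cje samples exceeded every 2N sample, and the difference was 0.42 (-0.25 to 1.09). Over the other processing settings and with each sample left out, the Hspa1b difference ran from 0.049 to 0.54. Because the coding sequences of Hspa1a and Hspa1b are almost the same, the assignment of signal between these 2 genes is uncertain.

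The Hsp110 exchange factors of Hsp70 did not separate the genotypes either. Hspbp1, which also helps Hsp70 release its nucleotide, is described below among the probe sets with the smallest unadjusted p. Hsph1, the Hsp110 protein that resets Hsp70 and is itself heat inducible, read 157 to 255 (median 184) in 2N and 162 to 205 (median 183) in Ts1Cje brain, and its difference was -0.046 (-0.27 to 0.18). All 6 Ts1Cje samples lay within the 2N range. Hspa4l, a relative of Hsph1, read 25.9 to 49.4 (median 36.5) and 13.7 to 43 (median 35.4) on array A, with a difference of -0.20 (-0.73 to 0.33). Ts1Cje replicate 6 was the low sample, and without it the difference was 0.035. The array B probe sets of Hspa4l differed by -0.23 (-0.78 to 0.33) and 0.027 (-1.32 to 1.38). Hspa4, the constitutive member of that group, was chosen for description after its values were seen, because it had 5 tested probe sets. Its log2 differences ran from -0.21 to 0.0047. The brightest, 96594_at, read 162 to 272 (median 223) in 2N and 131 to 267 (median 214) in Ts1Cje brain, which overlapped, with a difference of -0.086 (-0.44 to 0.26).

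Hsp90aa1, the inducible cytosolic Hsp90, spread widely within each genotype, at 543 to 1274 (median 917) in 2N and 755 to 1198 (median 963) in Ts1Cje brain. Its mean was 925 ± 245 in 2N and 969 ± 164 in Ts1Cje brain (SD, n = 6 each). The Ts1Cje samples all lay within the 2N range, and the difference was 0.096 (-0.23 to 0.43). It was -0.048 without 2N replicate 6, the lowest sample. A second array A probe set and the array B probe set for Hsp90aa1 were too dim to test. They read at the floor in 5 and 11 of 12 samples.

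Of the J-domain partners of cytosolic Hsp70, Dnajb1 and Dnaja1 gave tight values, with within-genotype SDs of 0.133 and 0.151 on the log2 scale. Dnajb1, the heat-inducible Hsp40, read 68.9 to 95.8 (median 78.1) in 2N and 66.1 to 80.6 (median 75.4) in Ts1Cje brain. The Ts1Cje samples overlapped the 2N samples, with 2 below all of them, and the difference was -0.11 (-0.31 to 0.10). Dnaja1, a farnesylated J-domain protein that works with Hspa8, read 437 to 552 (median 503) in 2N and 390.1 to 553 (median 483) in Ts1Cje brain, with a difference of -0.051 (-0.22 to 0.12). For Dnaja2, its close relative, the mean was 58.1 ± 8.60 in 2N brain (SD, n = 6). The 3 Dnaja probe sets of array A all lay below 0, from -0.17 to -0.051, with none past the test. Dnaja4, the brightest Dnaja probe set of array B, read 11.9 to 19 (median 15.1) and 11.7 to 16.3 (median 14.7), overlapping, with differences of -0.084 (-0.46 to 0.30) and, in its second probe set, -0.036 (-0.59 to 0.52).

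**Figure D2:**
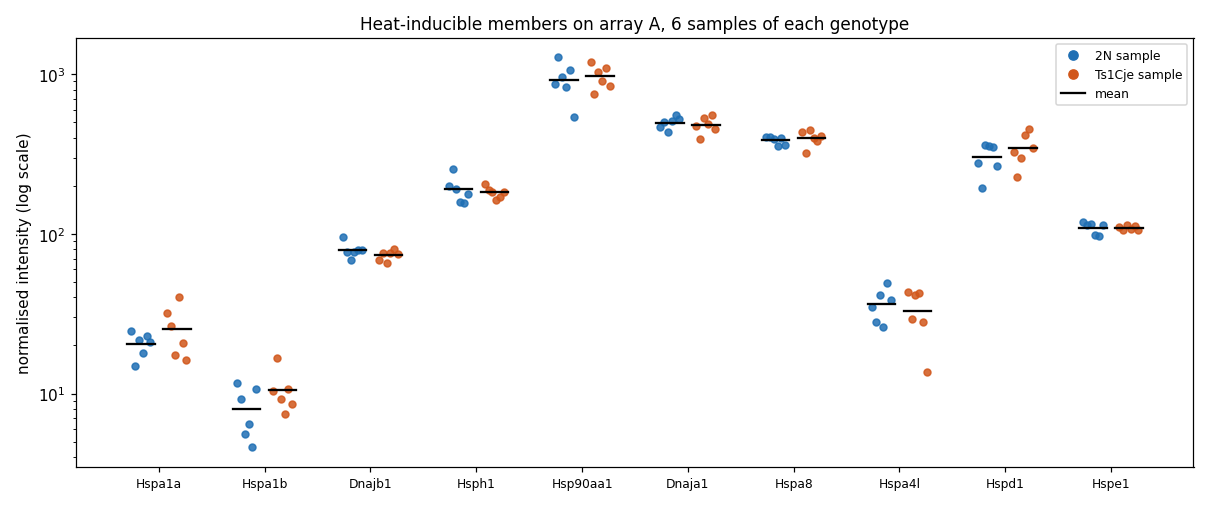
Normalised intensity (vertical axis, log scale) of the 10 members listed as heat inducible and tested on array A, Hspa8 included, with 1 point per sample for 6 2N and 6 Ts1Cje samples and a line at each mean. For every gene the points of the genotypes overlap, including Hsp90aa1, at 543 to 1274 in 2N and 755 to 1198 in Ts1Cje brain, and Hspa1a, whose highest value, 40.4, was a Ts1Cje sample.

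The members listed as heat inducible were also set side by side within each sample, since heat shock factors are known to raise them together. On array A the list comprised Hspa1a, Hspa1b, Hsph1, Hspa4l, Hsp90aa1, Dnajb1, Dnaja1, Hspd1, Hspe1 and Hspa8, of which Hspa8 is abundant without stress and was listed because heat is known to raise it further. Each gene was read by its brightest probe set, as a log2 deviation from that probe set's mean over all 12 samples. No sample had more than 1 of the 10 listed members over 0.5 above its mean, and Hspa8 was over 0.5 in none. The cut was the same for all members, so a smaller joint rise of those with little spread would not be counted. The members over 0.5 were Hspa4l in 2N replicate 5 (0.58), Hspa1a in Ts1Cje replicates 1 (0.53) and 4 (0.87), Hspa1b in Ts1Cje replicate 2 (0.93) and Hspd1 in Ts1Cje replicate 5 (0.52). The sample medians over the 10 members ran from -0.15 in 2N replicate 4 to 0.15 in Ts1Cje replicate 1. Where Hspa1b was highest, in Ts1Cje replicate 2, 3 of the 10 members were above their own mean. Hspb1, the inducible small heat shock protein Hsp27, had a mean of 2.90 ± 1.53 in 2N brain, near the floor, and was not tested.

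**Figure D3:**
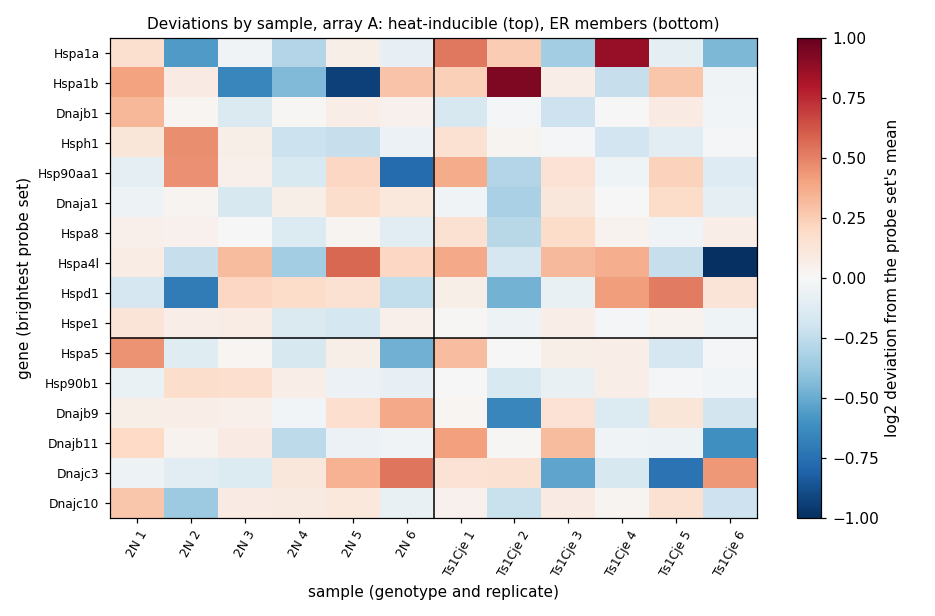
Log2 deviation of each of 12 array A samples (columns) from the probe set's own mean for the 10 members listed as heat inducible (upper rows) and 6 ER members (lower rows), red above and blue below, with the colour scale limited to 1 in either direction. Among the heat-inducible rows, values over 0.5 lie in 2N replicate 5 and in Ts1Cje replicates 1, 2, 4 and 5. Among the ER rows, Dnajc3 is over 0.5 in 2N replicate 6. No column is red throughout, and the deviations run from -1.27, in Hspa4l, to 0.934, in Hspa1b.

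Hspd1 and Hspe1 encode Hsp60 and Hsp10, the chamber and lid that fold imported proteins in mitochondria, and are transcribed in opposite directions from one shared promoter. Hspd1 read 194 to 362 (median 314) in 2N and 226 to 451 (median 335) in Ts1Cje brain. The upper 2 values were Ts1Cje samples, the others overlapped, and the difference was 0.19 (-0.16 to 0.54). Without 2N replicate 2, the lowest sample, it was 0.071. Hspe1 read 96.5 to 119 (median 114) in 2N and 105 to 114 (median 109) in Ts1Cje brain. All Ts1Cje samples lay within the 2N range and the difference was 0.0012 (-0.17 to 0.17). A second, dim Hspd1 probe set differed by -0.14 (-1.22 to 0.95). Hspa9, the mitochondrial Hsp70 that pulls proteins through the inner membrane, was chosen after its values were seen. It read 155 to 178 (median 161) and 152 to 177 (median 159), which overlapped, with a difference of -0.012 (-0.17 to 0.15).

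The promoter windows of the members were searched for the sites that heat shock factors and the unfolded protein response are known to use, and the stretches below are shown because heat shock factors are known to bind such elements. Windows ran from 250 bases before to 50 bases after each annotated start, from RefSeq on GRCm38.p6, and 54 of the 66 member genes had one. Genes without a window were not searched, among them Hsp90aa1 and Hspa8, listed as heat inducible, and Hspa9, Hspa13, Hspb2, Dnajc2 and Dnajc5. A heat shock element was taken as 3 units, either GAA, TTC and GAA or TTC, GAA and TTC in turn, with 2 bases between neighbours, which are each other's reverse complement, so that both strands were searched. Of the 54 member genes, 4 held it (7.41%), Dnajb6, Hspd1, Hspe1 and Hsph1, against 0.662% of 27025 genes. The Hsph1 match, which is not printed, lay after the annotated starts and not before them. Its stretch ran from 0 to 42 bases after one start, and from 21 to 49 after the other. In the excerpts the units are in capitals, with 15 bases on either side, 5′ to 3′ on the strand of the gene. The Hspd1 stretch is chr1:55088044-55088091 on the minus strand, the Hspe1 stretch is the same bases on the plus strand, and the Dnajb6 stretch is chr5:29735837-29735879 on the plus strand.
Hspd1: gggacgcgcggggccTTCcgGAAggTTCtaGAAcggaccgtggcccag
Hspe1: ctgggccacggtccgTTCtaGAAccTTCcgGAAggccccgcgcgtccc
Dnajb6: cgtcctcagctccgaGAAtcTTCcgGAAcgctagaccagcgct
The units of Hspd1 and Hspe1 are therefore one run of 4, shared by both genes. A pair of facing units, GAANNTTC or TTCNNGAA, which every 3-unit element also contains, was in 14 of 54 member genes (25.9%) and in 17% of all genes. Of the heat-inducible members, Hspa1a, Hspa1b, Dnaja1, Hspb1, Hspd1, Hspe1 and Hsph1 held it, and the searched windows of Dnajb1 and Hspa4l did not. The remaining members that held it, Dnaja4, Dnajb4, Dnajb6, Dnajc10, Dnajc27, Hspb6 and Hspb8, were not listed as heat inducible. The median log2 difference on array A was 0.014 over the 6 tested probe sets of genes with the 3-unit element and 0.0045 over the 44 tested without it. A match is a description of these letters and not a measured site of binding.

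No chaperone of the ER passed the test. Hspa5, or BiP, the Hsp70 of the ER lumen and its central chaperone, was chosen after its values were seen and read 82.7 to 157 (median 111) in 2N and 102 to 142 (median 117) in Ts1Cje brain. All Ts1Cje samples lay within the 2N range and the difference was 0.081 (-0.19 to 0.35). Hsp90b1, or Grp94, the Hsp90 of the ER, was likewise chosen after its values were seen and read 209.8 to 249.9 (median 223) and 199 to 232 (median 218). The genotypes overlapped and the difference was -0.070 (-0.22 to 0.081). Dnajc3, or P58IPK, a J-domain protein that assists BiP and restrains the kinase arm of the unfolded protein response, was dim in all its probe sets. Its 4 tested probe sets differed by -0.23, -0.024 and 0.87 on array A and by 0.39 on array B, with intervals of -0.71 to 0.25, -0.82 to 0.77, -0.13 to 1.87 and -0.88 to 1.66. Probe set 102415_r_at was one of the 5 of array A with the smallest unadjusted p (0.0855). It read 1.47 to 14.9 (median 7.44) in 2N and 6.57 to 13.2 (median 11.2) in Ts1Cje brain, and its difference was 2.01 among replicates 1 and 2 and 0.29 among replicates 3 to 6. It was 0.47 without 2N replicate 2, and 0.071 with 64 added to every value in place of the floor.

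The ER stress element, CCAAT followed after 9 bases by CCACG, was found on either strand in 3 of 54 member genes, Hspa5, Hsp90b1 and Dnajc3 (5.56%), against 0.137% of all 27025 genes. The stretches are shown because transcription factors of the unfolded protein response are known to bind this element. The windows of Dnajb9, Dnajb11 and Dnajc10, further members of the ER, did not hold these letters, and that of Dnajc10 held a facing pair of heat shock units. Both parts are in capitals, and in Hsp90b1 the second copy lies on the opposite strand and so reads CGTGG before ATTGG. The Hspa5 stretch is chr2:34772010-34772058 on the plus strand, the Hsp90b1 stretch chr10:86705518-86705671 on the minus strand and the Dnajc3 stretch chr14:118937812-118937860 on the plus strand.
Hspa5: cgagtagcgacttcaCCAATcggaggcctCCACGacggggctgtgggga
Hsp90b1: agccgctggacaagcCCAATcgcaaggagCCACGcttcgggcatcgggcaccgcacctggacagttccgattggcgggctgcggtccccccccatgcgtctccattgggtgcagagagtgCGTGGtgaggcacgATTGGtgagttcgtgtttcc
Dnajc3: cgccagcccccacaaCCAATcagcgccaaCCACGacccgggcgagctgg
On array A the 5 tested probe sets of these genes had a median log2 difference of -0.024, with 2 of 5 above 0. Other ER members were measured in 2N brain at means of 67.1 ± 9.60 for Dnajc10, a reductase of disulfide bonds, and 14.8 ± 1.55 for Dnajb9, a partner of BiP in degradation (SD, n = 6 each).

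Among the J-domain proteins with neuronal roles, Dnajc5 and Dnajb6 were read well above the floor. Dnajc5, the cysteine string protein of synaptic vesicles that keeps SNAP25 folded together with Hspa8, had 5 tested probe sets whose differences ran from -0.11 to 0.010. The brightest on array B, 109760_at, read 317 to 391 (median 328) in 2N and 304 to 356 (median 313) in Ts1Cje brain. There 5 of 6 Ts1Cje samples lay below every 2N sample and Ts1Cje replicate 6, at 355.5, lay among them, with a difference of -0.096 (-0.24 to 0.051, limma Benjamini-Hochberg adjusted p = 0.997). On array A Dnajc5 read 69.4 to 110.4 (median 91.4) and 80.3 to 104 (median 85), overlapping, and differed by 0.0025 (-0.24 to 0.25). Dnajb6, a suppressor of polyglutamine aggregation, read 327 to 416 (median 374) in 2N and 344 to 425 (median 392) in Ts1Cje brain, with a difference of 0.043 (-0.12 to 0.21). Its second probe set differed by 0.027 (-0.27 to 0.32). Dnajc8, a J-domain protein found with splicing factors, read 389 to 468 (median 401) and 382 to 469 (median 416), overlapping, and differed by 0.0044 (-0.14 to 0.15), with 0.12 (-0.11 to 0.36) in a second probe set. Dnajb4, the brightest Dnajb probe set of array B, read 35 to 44.8 (median 40.5) and 39.1 to 60.7 (median 43.5) and differed by 0.19 (-0.057 to 0.43), with 0.087 (-0.47 to 0.64) on array A.

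By class, none of the tested probe sets passed. Members of these classes not yet described had 2N means of 173 ± 12.7 for Dnajc7, which links Hsp70 to Hsp90, 64 ± 9.13 for Dnajb2, a J-domain protein of neurons that binds ubiquitin, 47.1 ± 5.20 for Dnajb5 and 34.8 ± 4.77 for Dnajc13, a factor of endosomal sorting, on array A (SD, n = 6 each). On array B the 2N means were 75.5 ± 5.46 for Dnajc27, a small GTPase with a J domain, 71.9 ± 24.1 for Dnajc30, a mitochondrial protein, and 26.3 ± 3.78 for the brightest probe set of Dnajb14, the paralogue of Dnajb12 in the ER membrane. None of these is set against another, since probes differ in their response. The 13 Dnajb probe sets of array A ran from -0.27 to 0.16 around a median of 0.013, and the 18 Dnajc probe sets from -0.27 to 0.87 around 0.013. The 14 Hspa probe sets of array A ran from -0.21 to 0.44 around a median of -0.0036. On array B the 9 Dnajb probe sets ran from -0.93 to 0.20 around -0.072, the 19 Dnajc probe sets from -0.52 to 0.65 around -0.088 and the 11 Hspa probe sets from -0.52 to 1.11 around -0.030. The medians of all tested probe sets were -0.0042 and -0.0034 on the 2 arrays. In 2N brain the Dnajc probe sets of array A had means from 2.25 to 419.6 and those of array B from 1.43 to 340.3.

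Of the Hspb probe sets, 4 on array A and 2 on array B were tested and none passed. Hspb2, a partner of the muscle myotonic dystrophy kinase, read 23.5 to 33 (median 28.2) in 2N and 28.7 to 41.1 (median 33.7) in Ts1Cje brain. In 4 of 6 Ts1Cje samples it lay above every 2N sample, and the difference was 0.27 (-0.024 to 0.57, limma Benjamini-Hochberg adjusted p = 0.991). Hspb6, or Hsp20, known from smooth and heart muscle, read 16.1 to 26 (median 21.4) and 14.2 to 19.5 (median 16.9) on array B. There 2 of 6 Ts1Cje samples lay below every 2N sample, and the difference was -0.33 (-0.66 to -0.0020, limma Benjamini-Hochberg adjusted p = 0.997). Among replicates 1 and 2 alone Hspb6 differed by 0.080, and among replicates 3 to 6 by -0.54. Over the other processing settings and with each sample left out, Hspb6 ran from -0.54 to -0.078 and Hspb2 from 0.091 to 0.33. The 4 tested Hspb probe sets of array A, Hspbp1 and Hspb11 among them, all lay above 0, with a median of 0.21, and the 2 of array B lay below 0, with a median of -0.23. Hspb8, a partner of Bag3 in the clearing of aggregates, had a mean of 26.4 ± 3.95 in 2N brain (SD, n = 6).

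Markers of vascular smooth muscle and skeletal muscle were set beside these values. On array A the summed intensity of 4 vascular smooth muscle markers ran from 20.9 to 36.9 in 2N and from 29.9 to 49.5 in Ts1Cje brain, and that of 5 skeletal muscle markers from 37.7 to 54.7 and from 40.8 to 66.1. Of these, 3 and 4 were tested. The smooth muscle actin Acta2 was chosen after its values were seen. It had a mean of 5.30 ± 4.42 in 2N and 9.58 ± 2.21 in Ts1Cje brain (SD, n = 6 each). Of its values 2 were at the floor, and its difference was 1.31 (limma Benjamini-Hochberg adjusted p = 0.991). The other tested markers, likewise given after their values were seen, differed by 0.20 (Tagln), 0.14 (Myh11), -0.022 (Acta1), 0.78 (Tnnc2), 0.51 (Ckm) and 0.34 (Tnnt3). Cnn1 was not tested because it was too dim. On array B 1 of the 4 vascular smooth muscle markers, Myh11, was present, at sums of 7.18 to 18.7 in 2N and 8.25 to 18.5 in Ts1Cje brain, and none of the skeletal muscle markers. Myh11 differed there by -0.19. Among replicates 1 and 2 alone Hspb2 differed by 0.55, and among replicates 3 to 6 by 0.14. The part of muscle and vessel cells in the Hspb2 and Hspb6 values was not tested.

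The probe sets with the smallest unadjusted p on each array are described next, none of which passed after adjustment. Hspbp1 read 68.2 to 110.4 (median 93.6) in 2N and 95 to 125 (median 109.96) in Ts1Cje brain. In 3 of 6 Ts1Cje samples it exceeded every 2N sample, and the difference was 0.27 (0.011 to 0.53, limma Benjamini-Hochberg adjusted p = 0.991). It was 0.29 among replicates 1 and 2 and 0.26 among replicates 3 to 6. Dnajc2, a J-domain protein that sits on the ribosome, read 52.6 to 69.5 (median 64.8) and 42.6 to 63.8 (median 56.4), with 2 of 6 Ts1Cje samples below every 2N sample and a difference of -0.25 (-0.51 to 0.019). Its second probe set differed by -0.081 (-0.38 to 0.22). Dnajc9, a J-domain protein that chaperones histones, read 64.8 to 111 (median 100.1) and 61 to 101 (median 74.5), with 2 of 6 Ts1Cje samples below the 2N samples and a difference of -0.27 (-0.58 to 0.046). Among replicates 3 to 6 alone Dnajc2 101890_f_at differed by -0.33 and Dnajc9 by -0.17.

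On array B the smallest unadjusted p belonged to Dnajb12, a J-domain protein of the ER membrane. Its probe set 115513_at read 9.90 to 30.8 (median 16.2) in 2N and 5.62 to 15.4 (median 8.42) in Ts1Cje brain. In 5 of 6 Ts1Cje samples it lay below every 2N sample, and Ts1Cje replicate 5, at 15.4, lay among them. The difference was -0.93 (-1.53 to -0.32, limma Benjamini-Hochberg adjusted p = 0.997), with -0.81 among replicates 1 and 2 and -0.99 among replicates 3 to 6. With 64 added to every value in place of the floor it was -0.16. The second Dnajb12 probe set, 116090_at, read 14.7 to 23 (median 19.4) and 16.8 to 30.9 (median 21.5) and differed by 0.20 (-0.15 to 0.54), in the other direction. The 95% intervals of these 2 probe sets of one gene did not overlap.

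Hspa12a, a distant relative of Hsp70 expressed in brain, gave the next smallest p on array B. Its probe set 105739_at read 31.1 to 49 (median 34.4) in 2N and 17.2 to 34.7 (median 25.8) in Ts1Cje brain. In 4 of 6 Ts1Cje samples it lay below every 2N sample, and the difference was -0.52 (-0.88 to -0.16, limma Benjamini-Hochberg adjusted p = 0.997). It was -0.063 among replicates 1 and 2 and -0.75 among replicates 3 to 6, and -0.16 with 64 added in place of the floor. The other Hspa12a probe sets differed by -0.068 (-0.29 to 0.16) in the brightest, at 55.3 to 75.9 (median 71.7) in 2N and 58.9 to 81.5 (median 62.3) in Ts1Cje brain, and by 0.14 and 0.035 in the remaining pair. No direction was therefore shared by the 4 probe sets.

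Dnajc16, a J-domain protein of the ER membrane, read 9.97 to 22.6 (median 15) in 2N and 8.05 to 14.9 (median 11.1) in Ts1Cje brain in probe set 117003_at. In 2 of 6 Ts1Cje samples it lay below the 2N samples, with a difference of -0.52 (-0.996 to -0.036), and the second probe set differed by -0.18 (-0.67 to 0.32). With 64 added in place of the floor, probe set 117003_at differed by -0.091. Dnajc18 read 31.9 to 40.9 (median 35.1) and 25.6 to 36.1 (median 28.7). In 5 of 6 Ts1Cje samples it lay below every 2N sample, and it differed by -0.26 (-0.51 to -0.013), with -0.14 (-0.53 to 0.26) in its second probe set. For both genes the probe sets lay on the same side of 0 and none passed the test. Among replicates 3 to 6 alone the differences were -0.60 for Dnajc16 117003_at and -0.31 for Dnajc18 105262_at. Over the other processing settings and with each sample left out, Dnajc18 105262_at ran from -0.32 to -0.086.

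Hspa14, an Hsp70 that pairs with Dnajc2 at the ribosome, was chosen after its values were seen because its probe sets differed most. Probe set 164327_at of array B was near the floor, at 1.13 to 12.7 (median 1.98) in 2N and 2.93 to 10.5 (median 6.22) in Ts1Cje brain, and differed by 1.11 (-0.037 to 2.27). With 64 added in place of the floor it differed by 0.053. Probe set 101562_at of array A read 12.8 to 28.8 (median 26) and 10.7 to 31.3 (median 22.2) and differed by -0.026 (-0.58 to 0.53). Among the 26 member genes with several tested probe sets, 16 had probe sets on both sides of 0 and 10 on 1 side, and in 1, Dnajb12, 95% intervals did not overlap.

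**Figure D4:**
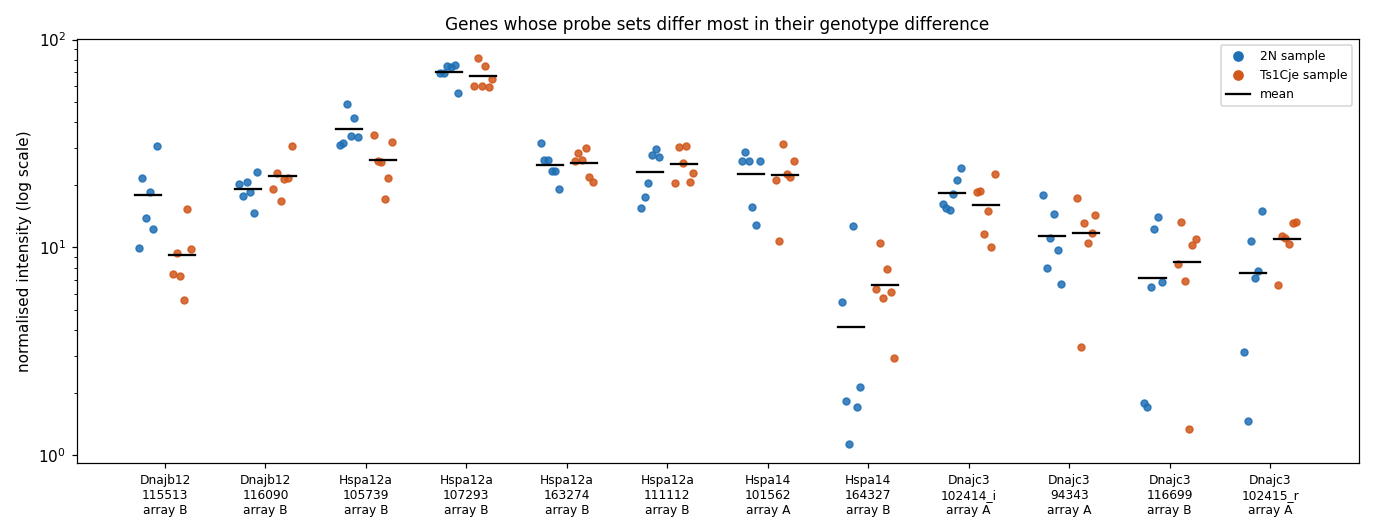
Normalised intensity (vertical axis, log scale) of the 12 tested probe sets of 4 genes, Dnajb12, Hspa12a, Hspa14 and Dnajc3, with 1 point per sample for 6 2N and 6 Ts1Cje samples and a line at each mean. Within each gene the genotypes are offset in one probe set more than in the others, as for Dnajb12, where the log2 difference is -0.93 in 115513_at and 0.20 in 116090_at.

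Members on chromosome 16, which carries the trisomic segment, were Dnaja3, Dnajb11 and Hspa13. In gene order all 3 lie on the centromeric side of Sod1, at which the triplicated part of Ts1Cje begins, so they are outside the segment. Dnaja3, the mitochondrial J-domain protein Tid1, read 71 to 86.8 (median 75.8) in 2N and 50.7 to 88.8 (median 69.996) in Ts1Cje brain. In 3 of 6 Ts1Cje samples it lay below and in 1 above every 2N sample, and the difference was -0.17 (-0.44 to 0.10). Dnajb11, a partner of BiP in the ER lumen, read 33 to 45.4 (median 39.6) and 25.9 to 52.7 (median 39.2), overlapping, and differed by 0.013 (-0.32 to 0.35). Hspa13, an Hsp70 relative bound to microsomes, read 30.4 to 39.6 (median 33.2) and 27.9 to 43.4 (median 35.5) in its brighter probe set, overlapping, and differed by 0.065 (-0.21 to 0.34) and, in the other, by -0.030 (-0.62 to 0.56). No interval of these 3 genes' brighter probe sets reached 0.585, the log2 value of 1.5-fold, which a gene with 3 copies against 2 would give in proportion to dose.

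A total of 7 member probe sets on array A and 10 on array B were too dim to test. They included the only probe sets of Hspb1, Dnajb8, Hspb9, Dnajb7 and Dnajc22, of which Dnajb7, Dnajb8 and Hspb9 are known mainly from testis. The others were further probe sets of Hsp90aa1, Hspb2, Hspb8, Hspa14, Dnajb4, Dnajb13, Dnajc1, Dnajc3 and Dnajc9. Their values at or near the floor limit what can be said of these transcripts to the probe sets at hand.

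Other chaperone genes, listed with earlier results of these data known, gave no call. Of the cochaperones of Hsp70 and Hsp90, 0 of 19 tested (array A) and 0 of 8 (array B) passed, with median log2 differences of 0.054 and 0.047. The brightest were Sgta, which hands tail-anchored proteins on, at 416 ± 62.3 in 2N and 464 ± 50.1 in Ts1Cje brain (SD, n = 6 each; difference 0.16), and Bag6, its partner (0.092). On array B these were Ahsa2, a relative of the Hsp90 activator Ahsa1 (0.028), and St13, the Hsp70-interacting protein (0.11). At the level of the regulators, 6 genes were listed, of which 3 were on array A and 1 on array B, with 1 tested on each and none passing. Hsbp1, which binds heat shock factor trimers, differed by -0.11 on array A and the heat shock factor Hsf2 by -0.13 on array B. Hsf1, also listed, was tested on neither array. Of the subunits of the cytosolic chaperonin and prefoldin, 0 of 13 (array A) and 0 of 2 (array B) passed, with medians of 0.013 and 0.019 and with Cct7 at 0.045, Cct5 at -0.056, Pfdn4 at 0.025 and Cct4 at 0.012.

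Among genes of ER folding and the unfolded protein response 0 of 19 (array A) and 0 of 7 (array B) passed, with medians of -0.0090 and -0.092. Atf4, a transcription factor of the response, differed by -0.14 and Sec61b, of the translocation channel, by -0.16 on array A, and Sec62, a further translocation factor, by -0.18 and Hyou1, the Hsp110 of the ER, by 0.17 on array B. Erp44, a thiol oxidoreductase that retains clients in the ER, was chosen after its values were seen. On array B it had a mean of 27.1 ± 1.72 in 2N and 20.003 ± 3.83 in Ts1Cje brain (SD, n = 6 each), with a difference of -0.46 (SE 0.147, limma Benjamini-Hochberg adjusted p = 0.997). Its array A probe set had a mean of 18.5 ± 4.23 in 2N and 20.3 ± 4.70 in Ts1Cje brain, and differed in the other direction, by 0.13 (SE 0.209). Partners of the mitochondrial chaperones gave 0 of 6 (array A) and 0 of 4 (array B), with medians of 0.024 and 0.043. The protease subunit Clpp differed by -0.20, the import motor subunit Timm44 by 0.20, the import receptor Tomm20 by 0.042 on array B and the unfoldase Clpx by 0.16. The crystallins Cryaa and Cryab, small heat shock proteins of the lens and, for Cryab, of glia and muscle, were dim and differed by 0.48 and 0.60, with standard errors of 0.391 and 0.481.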

How the data were processed

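Total RNA of mouse brain was measured on Affymetrix MGU74A and MGU74B arrays, with 6 2N and 6 Ts1Cje samples each. The values the authors deposited were linear intensities, 1 per probe set and array, while their summary and scaling of the probes are not given in the sources used here. Genes were named from GEO's platform annotation where a probe set had 1 symbol. After 66 control probe sets were left out of each table, arrays were quantile normalised, since 2% trimmed means differed by over 5% (by as much as 2.10-fold for array A, 1.86-fold for array B). Values were floored at the table's 10th percentile and log2 was taken, which can shrink the difference of dim genes. Probe sets whose mean reached the 25th percentile entered limma 3.58.1 in R 4.3.3 (lmFit, then eBayes with a variance trend, no covariate), with Benjamini-Hochberg adjustment within each table at 0.05. The tables were tested apart. Intensity errors are SD and intervals are 95% limma intervals. The same steps were run on simulated data with planted differences. That noise was independent between samples and lacked the replicate split. Its rate of recovery is not given here, so the power of the test is not stated.

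The members and gene lists were chosen with earlier results of these data known. Values were given for the 5 member probe sets with the smallest p per array, the brightest of each class per array, members on chromosome 16, the heat-inducible members by their brightest probe set, further probe sets of these genes, and the 2 brightest genes of each other list. Other members were given by their 2N level alone and by the range of their class. Any gene outside this rule whose difference is given is marked in the text as chosen after its values were seen. Deviations of samples with the same number in the 2 genotypes correlated at 0.0157 to 0.0787 on array A and 0.0122 to 0.109 on array B, so the numbers were not taken to pair samples. Alternatives changed the normalisation, floor, offset, filter, variance trend, array weights, replicate block and replicate set, and left out each sample. Promoter sequences are RefSeq's on GRCm38.p6. Gene order came from the same annotation.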

Additional observations from a re-analysis of the deposited data

Results flagged for a closer look

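In 14 of 120 groups of 6 samples (60 probe sets in 2 genotypes), 1 sample lay far from the other 5 on the log2 scale by Dixon's criterion. Normally distributed values would meet it in about 1 of 20 groups. The log2 of values near the floor need not be so distributed, and the groups share samples, so no excess over that rate is claimed. The values in brackets are linear intensities. Of these samples, 12 were low and 2 high. Hspa4 100352_at was low in 2N replicate 6 (1.47) and in Ts1Cje replicate 5 (1.51), and Hspa4 100353_g_at in 2N replicate 1 (29.2). Hspa14 101562_at was low in Ts1Cje replicate 2 (10.7). Among the Dnajc3 probe sets, 102415_r_at was low in Ts1Cje replicate 1 (6.57), 94343_at in Ts1Cje replicate 2 (3.33) and 116699_at in Ts1Cje replicate 4 (1.34). Dnajc2 104738_at was low in 2N replicate 2 (43.4), and Hspd1 161140_r_at in Ts1Cje replicate 1 (3.73). Hspa4l 99489_at was low in Ts1Cje replicate 6 (13.7), Hspa12a 107293_at in 2N replicate 6 (55.3) and Dnajc5 114508_at in Ts1Cje replicate 2 (17.5). A pair of probe sets had a high sample, Dnajc8 95700_r_at in Ts1Cje replicate 1 (131.9) and Dnajc5 109760_at in Ts1Cje replicate 6 (355.5).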

How the results depend on the processing

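Under 11 other settings and with each sample left out in turn, 0 member probe sets passed on either array. The smallest adjusted p was 0.752, for Hspa12a 105739_at without Ts1Cje replicate 1. Of 649 values of the 60 described probe sets under the other settings, 32 had the other sign, as had 80 of 718 with a sample left out. These were 29 probe sets, whose log2 differences were at most 0.39 in size. With a sample left out, 50 of the 60 differences moved by over 1.5 times or crossed 0 at least once. The cause of these changes was not tested. Without normalisation the members' median was -0.044 (array A) and 0.0016 (array B), where all tested probe sets had -0.055 and 0.055, and with 64 added it was -0.0090 on array B. With the replicate block, 0 and 0 members passed and the medians were 0.0045 and -0.068, with 3 of 6 2N samples (array A) and 2 of 6 (array B) matching their own number best.

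Without normalisation between arrays the sign turned for Dnajb6 104625_at (-0.034), Hspa4 161745_f_at (-0.035), Hspe1 92829_at (-0.056), Dnajc5 93211_at (-0.055), Dnajc8 95699_f_at (-0.083), Dnajb6 96120_at (-0.037), Hspa8 96564_at (-0.026), Dnajb11 98572_at (-0.038), Hspa13 108358_at (0.035), Dnajc5 109761_g_at (0.037) and Dnaja4 163506_at (0.017). With scaling to the trimmed mean it turned for Hspa14 101562_at (0.0079) and Dnajc8 95699_f_at (-0.024). With 64 added in place of the floor it turned for Hspa4 161745_f_at (-0.0045), Hspe1 92829_at (-0.00019), Dnajc5 93211_at (-0.00021) and Dnajc3 94343_at (0.0076). Array weights turned it for Hspa14 101562_at (0.14), Dnajc3 94343_at (0.0091), Hspa9 97914_at (0.0027) and Hspa4l 114595_at (-0.13). With replicates 3 to 6 alone it turned for Hspa4 100352_at (0.23), Hspa14 101562_at (0.39), Dnajc5 93211_at (-0.019), Dnajc3 94343_at (0.29), Dnajc8 95700_r_at (-0.053), Dnaja1 97261_at (0.0066), Hspa9 97914_at (0.046), Hsph1 98111_at (0.033), Dnajb11 98572_at (-0.029), Hspa12a 111112_at (-0.085) and Dnajc3 116699_at (-0.71). With a sample left out, values crossed 0 for 24 probe sets. Their ranges were -0.57 to 0.33 for Hspa4 100352_at, -0.18 to 0.17 for Hspa14 101562_at, -0.0060 to 0.18 for Hspa5 101955_at, -0.050 to 0.099 for Dnajb6 104625_at, -0.54 to 0.30 for Hspd1 161140_r_at, -0.20 to 0.15 for Hspa4 161745_f_at, -0.034 to 0.027 for Hspe1 92829_at and -0.069 to 0.065 for Dnajc5 93211_at. Further ranges were -0.075 to 0.29 for Dnajb4 93853_at, -0.17 to 0.31 for Dnajc3 94343_at, -0.048 to 0.20 for Hsp90aa1 95282_at, -0.028 to 0.037 for Dnajc8 95699_f_at, -0.17 to 0.038 for Hspa4 96594_at, -0.092 to 0.0085 for Dnaja1 97261_at, -0.037 to 0.012 for Hspa9 97914_at and -0.097 to 0.043 for Hsph1 98111_at. Further ranges were -0.068 to 0.14 for Dnajb11 98572_at, -0.30 to 0.035 for Hspa4l 99489_at, -0.15 to 0.074 for Hspa13 108358_at, -0.064 to 0.047 for Dnajc5 109761_g_at, -0.039 to 0.13 for Dnajc5 114508_at, -0.30 to 0.34 for Hspa4l 114595_at, -0.041 to 0.11 for Hspa12a 163274_at and -0.16 to 0.11 for Dnaja4 163506_at. Dim probe sets near the floor had the widest intervals, which limits what their signs can show.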
